A study of Mus musculus with 5 samples.

Results

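The genes described here are the folding and secretory machinery of the endoplasmic reticulum (ER), the compartment in which secreted and membrane proteins are made and folded. They come from a list of 31 genes, of which 27 have a probe set that the platform annotation gives exactly 1 gene symbol. A probe set is a set of short probes against the same transcript. Where a gene had several, the brightest by mean log2 value over the arrays stands for it. The whole series holds 8251 such genes. The listed genes Sdf2l1, Ern1, Sec61g and Sec24d had no such probe set and were not analysed here.

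RNA labelled as murine lung was hybridised to 5 Affymetrix mouse arrays. All mice were of the A/J strain and were treated through the trachea, 2 arrays after saline solution (titles 48 and 6) and 3 with IL13 (titles 18, 48 and 6). IL13 is interleukin-13 (IL-13), a T helper 2 cytokine that induces mucus-producing goblet cells, the subject of the series. The labels give the title numbers no unit, and the age of the mice, how many an array stands for and whether arrays come from separate animals were not found in those labels. Arrays are called by treatment and title number, as in saline 6. A p-value covers only the spread among these 5 arrays, which may be technical. No arrays of the same treatment share a title number, so that spread also takes in any difference between title numbers.

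Proteins bound for secretion are recognised as they leave the ribosome by the signal recognition particle and threaded through the Sec61 channel into the ER. There chaperones and protein disulfide isomerases fold them, failed products are sent to degradation, and COPII-coated vesicles carry the rest to the Golgi. When unfolded protein accumulates, the sensors IRE1, ATF6 and PERK start the unfolded protein response, which acts through the transcription factors XBP1, cleaved ATF6 and ATF4. In the airway, mucus-secreting cells are known for a large secretory load on this machinery.

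Promoters of several members carry the ER stress element (ERSE), the site through which ATF6 and XBP1 are known to act. The letters searched were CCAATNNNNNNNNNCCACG, on both strands of the 300 bases from 250 before to 50 after each start in RefSeq (build GRCm38.p6, the C57BL/6J reference and not the A/J strain). RefSeq promoters were found for 28 of the 31 listed genes, and 7 of these 28 (25.0%) held the element, against 0.137% of all 27025 genes. The genes were listed for their part in ER folding and secretion, so this difference in share is not a test. The 7 are printed because their readings are set apart in the results that follow. Each line runs 5′ to 3′ along the gene with 20 bases on either side, and the capitals mark the fixed letters of the element.
Hspa5, chr2:34772005-34772063, plus strand: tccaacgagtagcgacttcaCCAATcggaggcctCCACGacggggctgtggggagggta
Hsp90b1, chr10:86705513-86705676, minus strand: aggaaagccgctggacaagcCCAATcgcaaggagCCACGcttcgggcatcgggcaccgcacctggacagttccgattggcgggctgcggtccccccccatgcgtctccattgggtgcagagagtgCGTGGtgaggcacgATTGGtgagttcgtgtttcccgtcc
Dnajc3, chr14:118937807-118937865, plus strand: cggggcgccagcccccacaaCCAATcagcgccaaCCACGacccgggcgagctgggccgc
Calr, chr8:84847055-84847113, minus strand: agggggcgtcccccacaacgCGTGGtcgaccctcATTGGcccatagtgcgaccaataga
Canx, chr11:50325780-50325838, minus strand: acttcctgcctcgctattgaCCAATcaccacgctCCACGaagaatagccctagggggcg
Pdia6, chr12:17266471-17266529, plus strand: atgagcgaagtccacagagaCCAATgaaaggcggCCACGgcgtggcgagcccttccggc
Creld2, chr15:88819500-88819558, plus strand: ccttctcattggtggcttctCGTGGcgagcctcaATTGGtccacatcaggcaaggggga

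Hsp90b1 held 2 elements, one in each orientation, with first bases at -212 and -107 from the start. Only exact matches were counted. In the other 6 genes the single exact match began between -162 (Calr) and -65 (Hspa5). It read in the gene's own direction in Hspa5, Dnajc3, Canx and Pdia6 and in the opposite direction in Calr and Creld2. The second part of the element alone, CCACG, stood in 20 of the 28 promoters and in 35.5% of all genes. The core TGACGTGG of a further unfolded protein response element was found in 1 of the 28, Sec24d, which was not measured (0.714% of all genes). These matches describe letters and are not evidence of binding.

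Herpud1 and Trib3, 2 of the 8 tested members with a lower mean after IL-13, held other elements. The promoter of Herpud1 held the related element ERSE-II (ATTGGNCCACG, in 0.0444% of all genes). Both held the core TGATGNAA of the sites bound by ATF4 with C/EBP proteins (7.14% of the 28 listed genes, 4.51% of all genes). Dnajb9, P4hb, Ssr1 and Spcs2, also lower, held neither of these, and Atf6 and Sec61a1, lower too, had no promoter to search. Capitals mark the fixed letters of both elements, which do not overlap in Herpud1. The ATF4 core reads against the gene's direction in both genes, and in Trib3 it lies after the start, at bases 15 to 22.
Herpud1, chr8:94386297-94386407, plus strand: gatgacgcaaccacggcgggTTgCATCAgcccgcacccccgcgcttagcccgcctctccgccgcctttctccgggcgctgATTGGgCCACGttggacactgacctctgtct
Trib3, chr2:152344019-152344066, minus strand: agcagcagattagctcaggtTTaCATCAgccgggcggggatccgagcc

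Markers of other tissues and cell types differed between the arrays. All 9 measured salivary gland markers were brightest on saline 6, where they summed to an intensity of 112800, against 889.1 to 1139 on the other arrays. The 11 measured markers of B cells and plasma cells summed to 14810 on saline 6 and to between 4229 and 6719 elsewhere. Of these, 7 were brightest on saline 6, while Jchain, Sdc1, Prdm1 and Tnfrsf17 were not. Sdc1 (348.7) and Prdm1 (87.03) were lowest there. The 7 measured alveolar markers, which check the label of lung, summed to 30740 on IL-13 18 and to between 5628 and 7380 elsewhere. Among them the surfactant gene Sftpc read 17180 on IL-13 18, 2615 on saline 6 and 194.3 to 300.5 on the other 3 arrays. Napsa and Sftpd did not follow it, with Napsa lowest on saline 6 (1805) and Sftpd highest on IL-13 6 (217.1). Club cell markers, of the secretory cells of the airway surface, were bright on all 5 arrays, and thyroglobulin (Tg), a product of the thyroid, read 13170 to 25520. The other measured thyroid markers did not follow Tg, which was lowest on saline 48. Pax8 read 607.8 to 1494 and Tshr 41.09 to 378.9, both lowest on saline 6. The 9 measured goblet cell markers summed to 22970 and 24640 after saline and to 56300, 59970 and 74450 after IL-13. Clca1, the brightest of them after IL-13, gave 21500 to 29080 of those later sums. Clca1, Fcgbp, Agr2, Tff1 and Itln1 read higher on every IL-13 array than on either saline array. The groups overlapped for Tff2, Spdef and Foxa3, and Muc5ac read at most 29.8 on any array. The 6 measured markers of collagen-secreting fibroblasts summed to 43900 and 45260 after saline and to 51970, 56940 and 60860 after IL-13. Among them the groups overlapped for Col1a1. Heart and skeletal muscle markers summed to between 66520 (saline 48) and 107100 (saline 6). Those of cartilage summed to 1150 on saline 6 and to between 1835 and 3688 elsewhere. The sums of the 9 measured T cell markers were lower after IL-13, at 10030 (saline 6) and 12660 (saline 48), against 3043 (IL-13 6), 6326 (IL-13 18) and 2548 (IL-13 48). In such mixed tissue, fewer cells of a type and less RNA per cell cannot be told apart, and the part of these differences in the results below was not tested.

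Of the 27 genes, 23 were above the intensity filter (210.2 on at least 2 of the 5 arrays) and were tested. The question was which of them differed in level between mice given IL-13 and mice given saline. None passed the limma test over all 7811 probe sets at an adjusted p of 0.05 (lowest 0.444, for Trib3), where 0.0512% of all probe sets passed. At an unadjusted p under 0.05 there were 4 of 23, namely Pdia6 and Dnajc3 with a higher mean after IL-13 and Trib3 and Dnajb9 with a lower one, against 9.26% of all probe sets. The mean after IL-13 was higher for 15 of the 23 (55.3% of all probe sets) and the median log2 difference was 0.23 (0.04 over all probe sets). The groups did not overlap for 9 of the 23 members, 7 with every IL-13 array higher (14.8% of all probe sets) and 2 with every one lower (11.0%). The median was 0.09 when saline 6 was left out and 0.29 without saline 48.

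**Figure D1:**
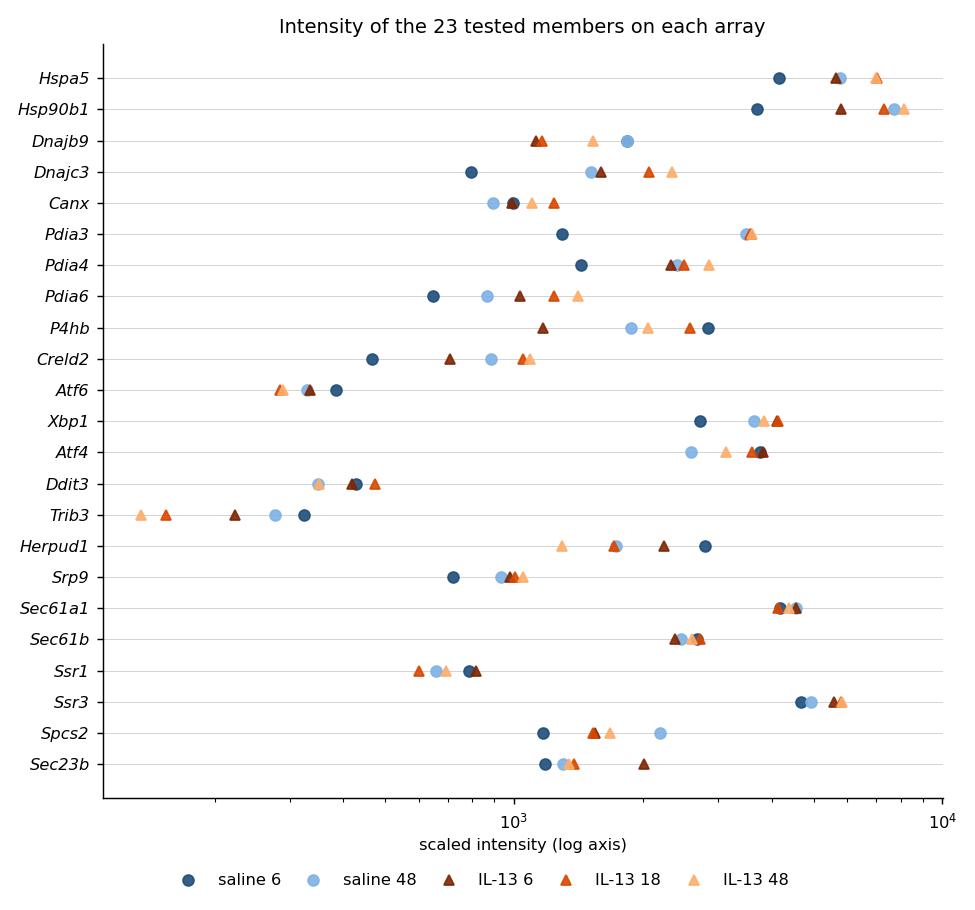
Scaled intensity (log axis) of each of the 23 tested members on the 5 arrays, with circles for saline and triangles for IL-13. The darkest circle, saline 6, lies left of all other arrays for 12 members, among them Hsp90b1, Dnajc3, Pdia3 and Pdia4. Intensities of different genes come from different probes and are not to be compared with each other.

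Of the chaperones of the ER lumen, Hspa5 encodes BiP, the HSP70 chaperone that binds unfolded chains and holds the stress sensors inactive. It read 4145 on saline 6 and 5770 on saline 48, and 5653, 7044 and 6987 on IL-13 6, IL-13 18 and IL-13 48. IL-13 18 and IL-13 48 were the highest arrays, while IL-13 6 lay just below saline 48, so the groups overlapped (log2 difference 0.42, SE 0.22, limma adjusted p 0.62, and 0.18 without saline 6). Hsp90b1, the HSP90 paralogue of the ER known as GRP94, read 3695 and 7705 after saline and 5802, 7322 and 8146 after IL-13 in the same order. Saline 6 stood apart, and saline 48 lay among the IL-13 arrays. The log2 difference of Hsp90b1 was 0.40 (SE 0.34, adjusted p 0.763) with all arrays and -0.13 without saline 6.

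Dnajc3 encodes P58IPK, a J-domain partner of BiP that also inhibits the kinase PERK. Its intensities were 792.0 and 1509 after saline and 1594, 2069 and 2342 after IL-13. Saline 6 was again the lowest array, and every IL-13 array exceeded saline 48. Its log2 difference was 0.85 (SE 0.32, adjusted p 0.529), and 0.39 without saline 6. A second probe set of it, 102414_i_at, did not order the arrays this way (335.0 and 722.3 after saline, 643.5, 577.1 and 569.7 after IL-13).

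Dnajb9, or ERdj4, is a J-domain protein that partners BiP and represses the sensor IRE1. It went the other way, with 1836 on saline 6 and 1838 on saline 48, and 1126, 1165 and 1525 after IL-13. Both saline arrays were nearly equal and all IL-13 arrays lay below them (log2 difference -0.54, SE 0.20, adjusted p 0.514), and the difference stayed between -0.68 and -0.46 whichever array was left out. The dimmer probe set 96679_at did not show it, with a log2 difference of 0.07. Hyou1, an HSP70-like nucleotide exchange factor of BiP, read below the floor of 55.28 on all 5 arrays and so gave no fold.

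The lectin chaperones calnexin and calreticulin hold newly made glycoproteins while they fold. Canx (calnexin) read 992.6 and 894.2 after saline and 989.8, 1243 and 1104 after IL-13, a narrow range in which the groups overlapped (log2 difference 0.23, SE 0.18, adjusted p 0.743). Its second probe set, 160180_at, had all IL-13 arrays above both saline arrays (log2 difference 0.35, adjusted p 0.577). The probe set of Calr (calreticulin) stayed below the floor on every array. That is a statement about this probe set, not about the transcript, which is known to be widely expressed.

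Protein disulfide isomerases form and rearrange the disulfide bonds of secreted proteins. Pdia3 (ERp57), the isomerase that works with calnexin and calreticulin, read 1295 on saline 6 and 3481 on saline 48, and 3564, 3555 and 3602 after IL-13. The other 4 arrays lay within a narrow band, so the log2 difference of 0.75 (SE 0.39, adjusted p 0.624) rested on saline 6 and was 0.04 without it. Saline 6 was also the lowest array for Pdia4 (ERp72), an isomerase with several active sites, with 1436 and 2401 after saline and 2325, 2493 and 2859 after IL-13. Its log2 difference was 0.46 (SE 0.26, adjusted p 0.646), and 0.09 without saline 6.

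Pdia6 (P5) is known to act on the stress sensor IRE1 besides its role as an isomerase. It read 646.7 and 865.8 after saline and 1030, 1237 and 1414 after IL-13. The lowest IL-13 array exceeded the higher saline array, and the log2 difference of 0.70 (SE 0.22, adjusted p 0.469) was 0.49 without saline 6 and 0.91 without saline 48. The other 2 probe sets of Pdia6 differed by 0.49 and 0.26, with overlap of the groups in both.

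Creld2, a secreted stress-induced protein with isomerase activity, read 466.7 and 884.5 after saline and 709.4, 1050 and 1091 after IL-13. Saline 6 was the lowest array and IL-13 6 lay below saline 48 (log2 difference 0.54, SE 0.33, adjusted p 0.676, and 0.08 without saline 6). P4hb, the founding disulfide isomerase and a subunit of prolyl 4-hydroxylase, had 2 probe sets that disagreed. The brighter, 161926_r_at, read 2841 and 1871 after saline and 1171, 2575 and 2055 after IL-13 (log2 difference -0.33, SE 0.37, adjusted p 0.82, -0.03 without saline 6 and -0.0035 without IL-13 6). The dimmer, 93108_at, had all IL-13 arrays (221.0, 219.1 and 173.2) above both saline arrays (119.4 and 147.7) and a difference of 0.61. The ending _r_at marks probes chosen under relaxed rules, so the direction of P4hb is not settled by these arrays.

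Among stress sensors and transcription regulators, Xbp1 encodes the factor that IRE1 activates by splicing its RNA, which this array does not resolve. It read 2710 and 3624 after saline and 4099, 4126 and 3827 after IL-13. Every IL-13 array was above both saline arrays, by a small margin over saline 48 (log2 difference 0.36, SE 0.19, adjusted p 0.629, and 0.15 without saline 6). Atf6, the membrane-bound sensor and factor, read 384.9 and 328.1 after saline and 334.4, 284.8 and 288.5 after IL-13 (log2 difference -0.24, SE 0.18, adjusted p 0.74, and -0.12 without saline 6). The groups overlapped, because IL-13 6 lay above saline 48.

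Atf4 and Ddit3 belong to the branch of PERK, in which ATF4 induces the factor CHOP (Ddit3) and the pseudokinase Trib3. Atf4 read 3746 and 2584 after saline and 3805, 3600 and 3125 after IL-13, and Ddit3 read 427.3 and 348.8 after saline and 419.5, 473.3 and 350.9 after IL-13. Saline 48 was the lowest array for both, and the log2 differences of 0.17 (SE 0.22) and 0.09 (SE 0.20) were smaller than their errors. Trib3, which inhibits the kinase AKT and feeds back on CHOP, read 324.0 and 276.2 after saline and 223.2, 153.8 and 134.5 after IL-13. Every IL-13 array was lower than either saline array. The difference of -0.85 on the log2 scale (SE 0.25, adjusted p 0.444) ranged from -1.06 to -0.69 leaving out 1 array. It was -0.48 with the floor raised to the 40th percentile (210.2), under which IL-13 18 and IL-13 48 lie.

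Degradation of misfolded proteins was represented by 2 genes. Herpud1, a membrane protein that organises the degradation complex, read 2789 and 1726 after saline and 2234, 1712 and 1294 after IL-13. Saline 6 was the highest array here, and the log2 difference of -0.36 (SE 0.31, adjusted p 0.763) was -0.02 without it and -0.17 without IL-13 48. Edem1, a mannosidase-like protein that extracts misfolded glycoproteins, was not above the filter. It read 181.8 and 308.8 after saline and 185.9, 156.2 and 162.8 after IL-13, so that saline 48 alone stood above the rest.

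Of the targeting and translocation genes, Sec61a1 and Sec61b encode subunits of the channel itself. Sec61a1 read between 4125 and 4555 on all 5 arrays (log2 difference -0.0034, SE 0.16) and Sec61b between 2374 and 2723 (0.0035, SE 0.17), so in both the difference was far smaller than its error. A second probe set of Sec61a1, 160291_at, was lowest on saline 6 (2507) and read 3423 to 3782 elsewhere. Ssr1 and Ssr3 encode subunits of the translocon-associated protein complex, which helps some chains enter the channel. Ssr1 read 599.4 to 813.6 with no order by treatment (log2 difference -0.04, SE 0.20). Its dimmer probe set, 94511_at, read 149.8 and 253.8 after saline and 196.5, 255.0 and 251.5 after IL-13. The log2 difference there was 0.26, and -0.13 without saline 6.

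Ssr3 read 4670 and 4930 after saline and 5582, 5788 and 5814 after IL-13. All IL-13 arrays were above both saline arrays, within a narrow range (log2 difference 0.26, SE 0.16, adjusted p 0.679, and 0.22 to 0.29 leaving out 1 array). Of its other probe sets, 104249_g_at had the same separation at a larger difference of 0.76 (adjusted p 0.362), and 104248_at had overlapping groups at 0.35. Srp9, a small subunit of the signal recognition particle, read 718.9 and 931.2 after saline and 978.3, 1007 and 1048 after IL-13 (log2 difference 0.30, SE 0.18, adjusted p 0.675, and 0.12 without saline 6). Spcs2, a subunit of the signal peptidase that removes the signal sequence, read 1168 on saline 6 and 2188 on saline 48, and 1543, 1526 and 1675 after IL-13, all between both saline values. The probe set of Ssr4 was below the floor on all arrays.

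Sec23b, a component of the inner COPII coat, was the only measured gene of vesicle budding on the list. It read 1183 and 1302 after saline and 2014, 1377 and 1346 after IL-13. All IL-13 arrays were above both saline arrays, but IL-13 18 and IL-13 48 by little, and IL-13 6 was the highest array (log2 difference 0.32, SE 0.23, adjusted p 0.721, and 0.13 without IL-13 6). Its second probe set, 161939_f_at, was dim, from 60.26 to 400.8, and had IL-13 48 below saline 48, with a log2 difference of 1.45 (adjusted p 0.558). The mean of both probe sets gave 0.89.

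**Figure D2:**
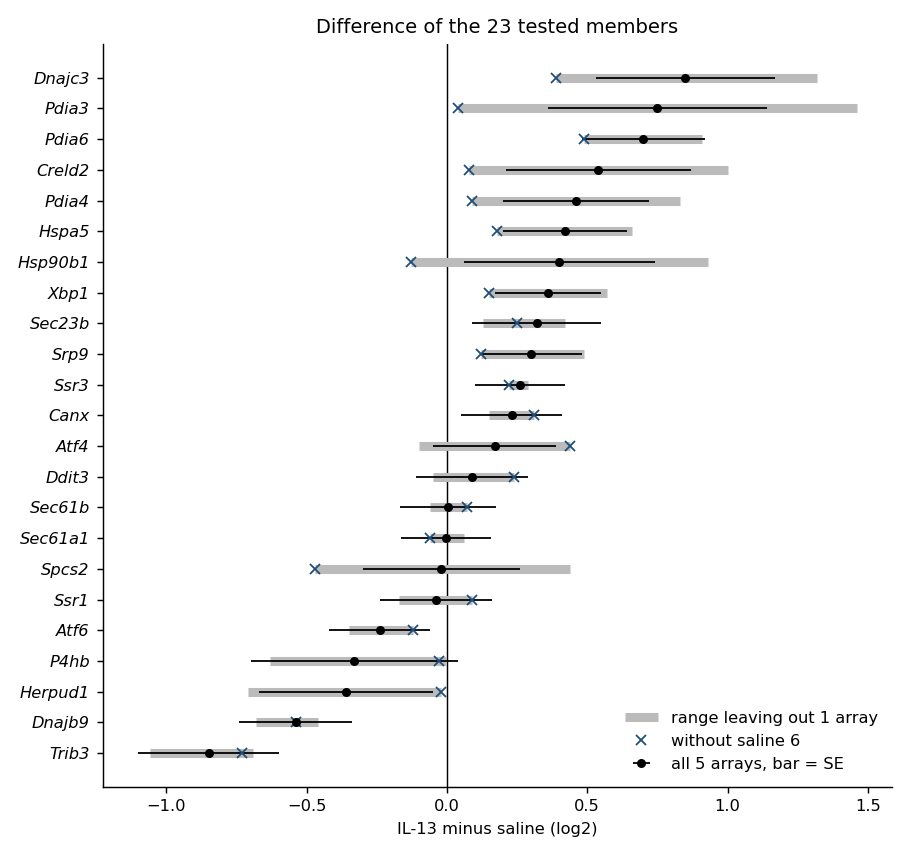
Log2 difference of IL-13 minus saline for the 23 tested members, with the moderated SE as a thin bar, the range when 1 array is left out as a grey bar, and the value without saline 6 as a cross. Without saline 6 the values of Pdia3, Creld2, Pdia4 and Hsp90b1 lie between -0.13 and 0.09, whereas Pdia6, Dnajb9 and Trib3 stay at 0.49, -0.54 and -0.73.

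Leaving out saline 48 instead enlarged several differences, to 0.66 for Hspa5, 0.93 for Hsp90b1, 1.32 for Dnajc3, 1.46 for Pdia3, 0.83 for Pdia4, 1.00 for Creld2, 0.57 for Xbp1, 0.49 for Srp9, -0.63 for P4hb and -0.71 for Herpud1.

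Read by role, the 5 tested disulfide isomerases and partners had a median log2 difference of 0.54 and the 4 tested lumenal chaperones one of 0.41. Without saline 6 these medians were 0.08 and 0.02, and without saline 48 they were 0.91 and 0.79. The 5 sensors and regulators had a median of 0.09, or 0.15 without saline 6 and -0.10 without saline 48. That of the 6 targeting and translocation genes was 5.9e-05, or 0.08 without saline 6 and 0.18 without saline 48. The difference between roles was not tested.

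Single arrays of the same title number were compared without a test, counting members at least 1.5-fold apart whose higher value exceeded the pooled median intensity of 343.0. On IL-13 6 against saline 6, 8 of 23 members were higher (9.99% of all tested probe sets) and 2 were lower (7.78%). The 8 were Hsp90b1, Dnajc3, Pdia3, Pdia4, Pdia6, Creld2, Xbp1 and Sec23b, and the 2 were Dnajb9 and P4hb. The folds ran from 1.51 for Xbp1 to 2.75 for Pdia3. On IL-13 48 against saline 48, 2 were higher (4.42%), namely Dnajc3 (1.55-fold) and Pdia6 (1.63-fold), and 0 were lower (4.58%). Trib3 read 0.487 times the saline value there, but both intensities were below the pooled median.

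The saline arrays also differed from each other. On saline 48 against saline 6, 6 members were at least 1.5-fold higher (10% of all tested probe sets) and 2 were lower (7.23%). The 6 were Hsp90b1 (2.09-fold), Dnajc3 (1.91-fold), Pdia3 (2.69-fold), Pdia4 (1.67-fold), Creld2 (1.90-fold) and Spcs2 (1.87-fold), and the 2 were P4hb and Herpud1. This comparison shares saline 6 with the pair at 6. With saline 48 in place of saline 6 as the control, IL-13 6 had 1 member higher and 2 lower. The share of all tested probe sets was not computed for that control. The median log2 ratio there was 0.03 over members and 0.0 over all tested probe sets. Saline 6 was the lowest of the 5 arrays for 12 of the 23 members, against 32.1% of all tested probe sets.

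**Figure D3:**
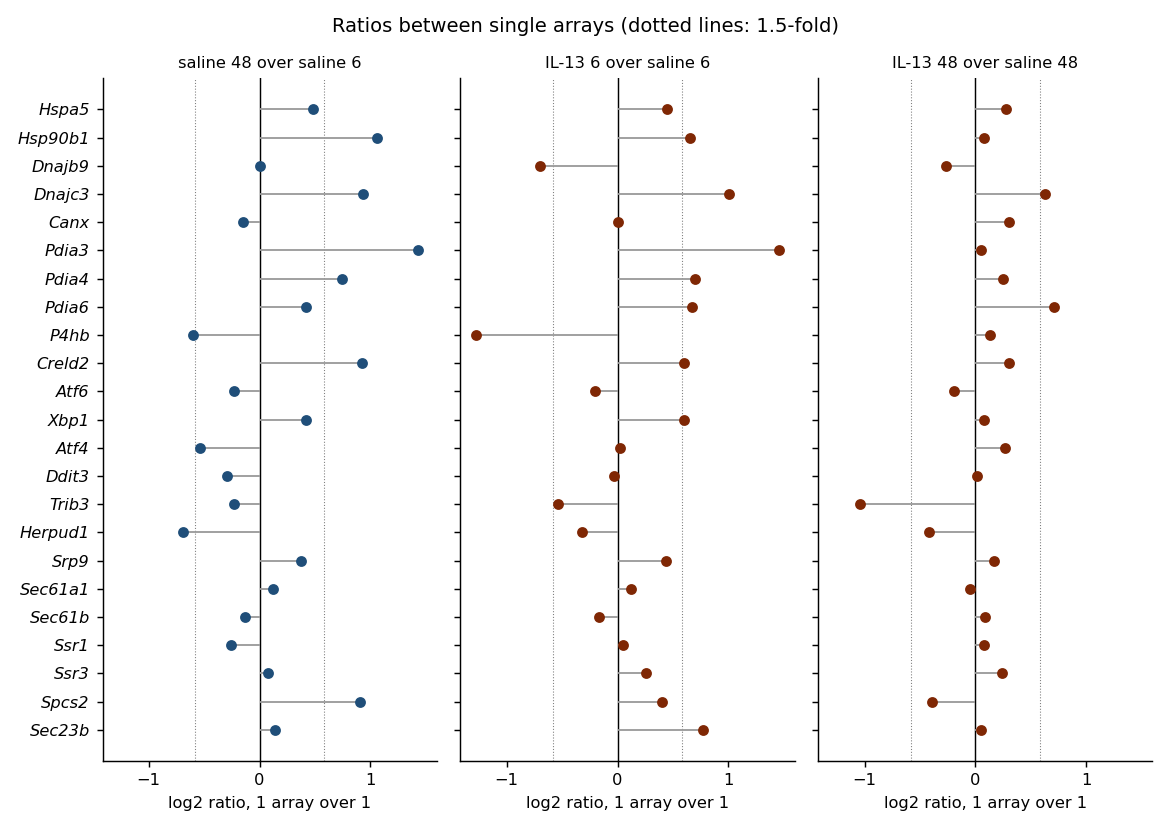
Log2 ratio between single arrays for each tested member, for saline 48 over saline 6, IL-13 6 over saline 6 and IL-13 48 over saline 48, with dotted lines at 1.5-fold. Pdia3 reaches 2.69-fold between the saline arrays and 2.75-fold in the pair at 6, and reads 1.03-fold in the pair at 48. No value has a replicate.

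IL-13 18 has no saline array of its own title number and was set against the mean log2 value of both. There 4 members were at least 1.5-fold higher (6.96% of all tested probe sets), namely Dnajc3 (1.89-fold), Pdia3 (1.67-fold), Pdia6 (1.65-fold) and Creld2 (1.63-fold). Dnajb9, at 0.634 times the saline mean, was the 1 member lower (5.22%). IL-13 18 is the array on which the alveolar marker Sftpc, given above, was brightest.

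The members were also read by whether their promoter holds an ERSE. Of the 7 genes printed above, 6 were tested, and all 6 had a higher mean after IL-13 (55.3% of all probe sets), with a median log2 difference of 0.48. Of the 15 tested members whose promoter was searched and held no exact match, 9 had a higher mean, and their median was 0.09. These 15 may hold near matches, and they include Herpud1 with its ERSE-II. Atf6 and Sec61a1 had no RefSeq promoter to search and are in neither group. Centred on each gene's mean over the arrays, the median log2 level of the 6 was -0.70 on saline 6 and -0.03 on saline 48, and -0.05, 0.29 and 0.41 on IL-13 6, IL-13 18 and IL-13 48. That of the 15 stayed between -0.06 and 0.11, but single genes among them ranged on saline 6 from -1.16 (Pdia3) to 0.62 (Trib3). Saline 6 was the lowest array for 5 of the 6, Canx being the exception. It was the lowest for 7 of the 15, and for 32.1% of all tested probe sets. By role the 6 are chaperones or disulfide isomerases and partners, so element and role overlap. Without saline 6 the median difference was 0.24 for the 6 and 0.09 for the 15, and without saline 48 it was 0.92 and -0.05.

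Of the genes with an ERSE that are no members, 4 were tested, the oxidase gene Ero1b of the ER, Adcy3, Pan2 and Ptgdr2. Their log2 differences were -0.09, -0.03, 0.05 and 0.16, and 2 of them were lower and 2 higher after IL-13. The contrast between members with and without the element was not tested.

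**Figure D4:**
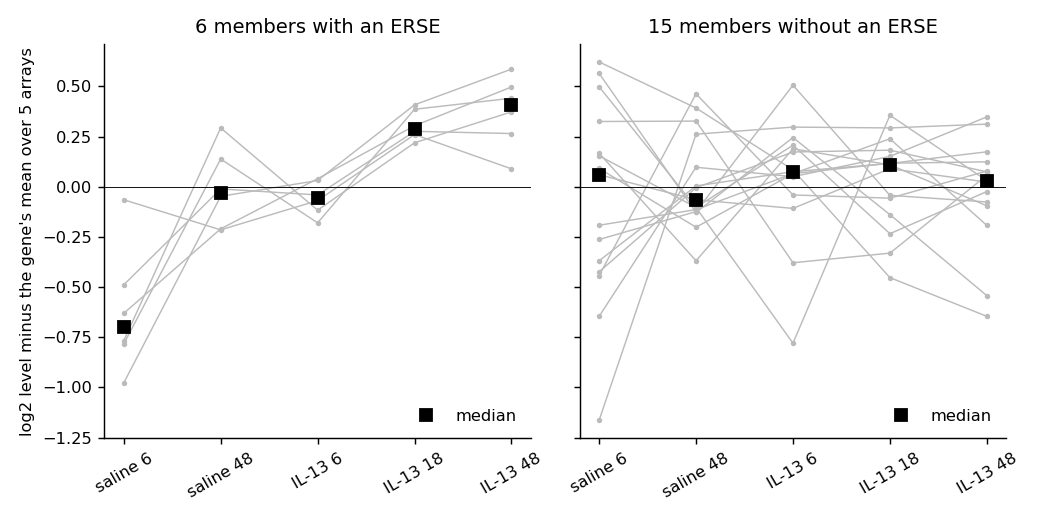
Log2 level of each tested member with a searched promoter minus its own mean over the 5 arrays, for the 6 members with an exact ERSE match and the 15 without. Squares give the median, and lines join the values of one gene. The squares of the left panel go from -0.70 on saline 6 to 0.41 on IL-13 48, and those of the right panel stay between -0.06 and 0.11.

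The rest of the pathway was read from 6 further lists of 182 genes, of which 135 were tested. None passed the limma test (lowest adjusted p 0.321), and 12 had an unadjusted p under 0.05 (9.26% of all probe sets). The mean after IL-13 was higher for 84 and lower for 51, where 55.3% of all probe sets had a higher mean. The median log2 difference was 0.08, or -0.02 without saline 6 and 0.21 without saline 48. The lists that follow are read against that same share of 55.3%. Folding enzymes and calcium-binding proteins of the ER had 22 of 31 higher. Their median was 0.22, or 0.06 without saline 6 and 0.32 without saline 48. Within them Agr2, a disulfide isomerase of mucus cells, differed most, with 1944 and 2646 after saline and 5156, 9370 and 4339 after IL-13 (log2 difference 1.39, SE 0.35, adjusted p 0.362). Its probe set, 101075_f_at, may take up related transcripts. The lowest of that list was Erp29, a chaperone of the ER lumen, at -0.32 (SE 0.20).

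Transport between ER and Golgi had 23 of 32 higher and a median of 0.14, or 0.02 without saline 6. It ran from -0.54 (SE 0.18) for Ergic3, a membrane protein of the intermediate compartment, to 0.54 (SE 0.29) for Kdelr3, a receptor that returns escaped chaperones to the ER. Targeting and signal cleavage had 8 of 14 higher and a median of 0.05, or -0.03 without saline 6, with the translocation-associated protein gene Tram1 at 0.67 (SE 0.33) and the signal peptidase gene Sec11a at -0.16 (SE 0.18). N-glycosylation had 12 of 19 higher and a median of 0.07, or -0.12 without saline 6, with Uap1, which makes the sugar donor UDP-N-acetylglucosamine, at 0.62 (SE 0.24) and the glucosyltransferase gene Alg5 at -0.58 (SE 0.21). ER-associated degradation had 9 of 14 higher and a median of 0.10, or -0.05 without saline 6, with the channel component gene Derl1 at 0.34 (SE 0.18) and the lectin gene Os9 at -0.42 (SE 0.20). Without saline 48 these medians were 0.24 for transport, 0.17 for targeting, 0.24 for N-glycosylation and 0.13 for degradation.

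Stress signalling and the integrated stress response had 10 of 25 higher and 15 lower. Their median was -0.01, or 0.03 without saline 6 and -0.15 without saline 48. Atf3, a stress-induced factor, read 309.2 and 363.2 after saline and 547.6, 760.0 and 587.9 after IL-13, on an _f_at probe set (log2 difference 0.90, SE 0.21, adjusted p 0.321). The groups did not overlap. At the other end Ddit4, an inhibitor of mTOR signalling, read 2196 and 2733 after saline and 1991, 929.5 and 1098 after IL-13 (log2 difference -0.95, SE 0.34, adjusted p 0.509). Its IL-13 18 and IL-13 48 arrays stood well below the other 3.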

How the data were processed

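The authors deposited one table of intensity values on a linear scale for 12488 probe sets on 5 arrays. How it was made is not given in the sources used, and the values show a common 2% trimmed mean (800.39 to 800.47). Control probe sets (66) were left out. Of 12422 others, 10833 had exactly 1 symbol, 396 several and 1193 none. Each array was brought to the same trimmed mean, a floor was put at the 20th percentile of all values (55.28) and the result was log2-transformed. Probe sets with at least 2 arrays over the 40th percentile (210.2) entered lmFit and eBayes of limma 3.58.1 (R 4.3.3) as a 2-group model of treatment, two-sided, with Benjamini-Hochberg adjustment over 7811 probe sets (3 residual and 3.46 prior degrees of freedom). The fit was tested on simulated data. The number of arrays limits the precision. The members and lists were chosen with earlier results of these data known. Every member is named with its values, and of each further pathway list the genes with the highest and lowest difference. Printed intensities are scaled values, and log2 differences use the floored ones. Alternatives covered scaling, floor, filter, limma settings, a block for title number, leaving out arrays, the choice of probe set, fold thresholds and the control array. A further one, quantile normalization for the saline arrays and IL-13 18, was added after the data were seen. Promoter sequences are those of RefSeq.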

Additional observations from a re-analysis of the deposited data

Results flagged for a closer look

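Spcs2, the signal peptidase subunit, differed in opposite directions in the 2 comparisons of arrays with the same title number, being 1.32-fold higher on IL-13 6 than on saline 6 and 0.766 times the saline value on IL-13 48. Each comparison is 1 array against 1, so their disagreement was not tested. The saline arrays themselves were 1.87-fold apart.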

How the results depend on the processing

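No alternative brought a member past the threshold. The lowest adjusted p of a member was 0.0885, for Pdia3 without saline 48, against 0.624 with all arrays. The number of members with a higher mean was 15 of 23 in the main setting and ran from 14 to 18 in the alternatives. The count of 18 came with the mean of all probe sets of a gene and with no filter. With no filter Edem1, Hyou1, Calr and Ssr4 enter. The last 3 lie at the floor on every array, so their difference is fixed at 0. The no-filter count of 18 of 27 takes them in and is not a count of measured differences. The median log2 difference of 0.23 was 0.09 with no filter, and 0.15 with title number as a replicate block over 4 arrays. Nothing in the labels pairs the arrays, and the difference of 6 minus 48 in saline and in IL-13 correlated at r = 0.132 across probe sets. Leaving out 1 array gave medians from 0.09 to 0.29. Signs turned as follows. With the block Ddit3 was -0.01, Sec61a1 0.04, Sec61b -0.04, Ssr1 0.07 and Spcs2 0.01. The block leaves out IL-13 18, and these are also the values when that array alone was left out. Why signs turned in the other alternatives was not tested. Sec61a1 was 0.02 with quantile normalization and Sec61b was -0.01 with a common median of bright probe sets. With the mean of all probe sets P4hb was 0.14, Sec61a1 0.09 and Ssr1 0.11, and with the brightest plain probe set P4hb was 0.61. Leaving out 1 array turned 7 members, with ranges of -0.13 to 0.93 (Hsp90b1), -0.17 to 0.09 (Ssr1), -0.10 to 0.44 (Atf4), -0.05 to 0.24 (Ddit3), -0.06 to 0.06 (Sec61a1), -0.06 to 0.07 (Sec61b) and -0.47 to 0.44 (Spcs2). At 2-fold the pair at 6 had 2 members higher and 1 lower, the pair at 48 had 0 higher, saline 48 against saline 6 had 2 higher and 0 lower, and IL-13 18 against saline had 0 higher and 0 lower. At the lowest threshold, a ratio of 5 to 4, the pair at 48 had 2 lower, saline 48 against saline 6 had 10 higher, and IL-13 18 had 9 higher and 2 lower. With the other saline array as control the pair at 6 had 1 higher, and the pair at 48 had 7 higher and 1 lower. In the latter the median log2 ratio was 0.19 over members and 0.08 over all tested probe sets. No share over all tested probe sets was computed for these other thresholds and controls, so the counts describe the members alone.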
